A study of Mus musculus with 6 samples.

Results

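The acute phase proteins described here are 10 genes, Saa1, Saa2, Saa3, Saa4, Orm1, Orm2, Hp, Hpx, Lcn2 and Apcs, chosen by symbol from the 49671 mouse genes of the count table. Each symbol matched 1 Ensembl gene, and all 10 passed the filter on low counts. They were measured by RNA sequencing of whole liver from 3 mice labelled WT and 3 labelled KO. The labels state only WT and KO. WT was taken as the control of the study, which carried the floxed Shmt2 allele without Cre (SHMT2 fl/fl). KO was taken as SHMT2 HKO, which carried the same allele together with an Albumin-Cre transgene. In SHMT2 HKO mice exons of Shmt2 are removed in cells that express albumin, chiefly hepatocytes. All mice were male, on the C57BL/6J background, and received the AMLN diet, which is high in cholesterol, fructose and fat, for 18 weeks starting at 4 weeks of age, so that the KO could be compared with the control only under that diet. Livers were taken at 22 weeks of age after a short fast. The question the comparison addresses is which acute phase genes differ when mitochondrial serine hydroxymethyltransferase is deleted in hepatocytes of mice with diet-induced fatty liver.

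Acute phase proteins are plasma proteins whose synthesis in hepatocytes changes within hours of infection or injury. Interleukin-6 family cytokines act through gp130, JAK kinases and STAT3, and interleukin-1 and tumor necrosis factor act through NF-kappaB and C/EBP factors, on the promoters of these genes. Serum amyloid A proteins travel with high density lipoprotein, orosomucoids bind basic and lipophilic compounds in plasma, haptoglobin and hemopexin capture free hemoglobin and heme, lipocalin 2 withholds iron-loaded siderophores from bacteria, and serum amyloid P is a pentraxin that binds amyloid and bacterial surfaces. In the mouse, Saa1, Saa2 and Apcs are among the most inducible liver products, whereas Saa4 is usually described as constitutive.

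The promoters of the 4 Saa genes and of Lcn2 are shown because these genes gave the largest differences between mice. The sequences are the 250 bases before the start annotated by RefSeq (GRCm38.p6), read 5′ to 3′ along the gene, with matches to the searched motifs in capitals.
Saa1 (chr7:46742981-46743230, minus strand): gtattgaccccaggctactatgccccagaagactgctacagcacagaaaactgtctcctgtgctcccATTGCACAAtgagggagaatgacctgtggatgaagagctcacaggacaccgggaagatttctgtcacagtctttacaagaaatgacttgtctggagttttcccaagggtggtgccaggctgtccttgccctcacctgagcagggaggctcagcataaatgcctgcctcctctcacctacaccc
Saa2 (chr7:46751583-46751832, plus strand): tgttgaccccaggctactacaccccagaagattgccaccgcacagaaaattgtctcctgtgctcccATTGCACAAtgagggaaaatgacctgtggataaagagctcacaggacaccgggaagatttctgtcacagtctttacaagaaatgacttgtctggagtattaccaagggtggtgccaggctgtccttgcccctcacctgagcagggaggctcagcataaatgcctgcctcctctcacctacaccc
Saa3 (chr7:46715677-46715926, minus strand): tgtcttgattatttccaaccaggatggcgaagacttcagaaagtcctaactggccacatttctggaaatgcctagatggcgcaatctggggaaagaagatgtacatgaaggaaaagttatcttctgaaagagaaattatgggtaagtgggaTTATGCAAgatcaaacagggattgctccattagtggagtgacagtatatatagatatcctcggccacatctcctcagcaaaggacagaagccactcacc
Saa4 (chr7:46732604-46732853, minus strand): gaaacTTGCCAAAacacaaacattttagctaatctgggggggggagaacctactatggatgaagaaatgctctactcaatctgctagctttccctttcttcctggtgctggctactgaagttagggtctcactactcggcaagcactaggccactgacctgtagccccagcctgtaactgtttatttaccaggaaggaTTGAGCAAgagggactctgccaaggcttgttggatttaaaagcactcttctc
Lcn2 (chr2:32387740-32387989, minus strand): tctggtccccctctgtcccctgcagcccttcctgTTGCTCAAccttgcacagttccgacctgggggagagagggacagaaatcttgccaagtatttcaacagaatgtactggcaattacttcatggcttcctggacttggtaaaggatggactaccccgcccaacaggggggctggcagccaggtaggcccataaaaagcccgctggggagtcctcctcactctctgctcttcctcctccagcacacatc
Windows were given for 8 of the 10 genes and for Orm3, an orosomucoid gene outside the set. The capitals mark TTGCNNAA or TTNNGNAAT, letters of the C/EBP type, searched on both strands. TTGCNNAA occurred in 7 of the 8 windows, those of Saa1, Saa2, Saa3, Saa4, Orm2, Hpx and Lcn2, against 10.8% of the windows of 27025 genes. TTNNGNAAT, whose matches in Saa1 and Saa2 overlap those of TTGCNNAA, occurred in Saa1, Saa2 and Orm2, against 11.7% of genes. The STAT3-type letters TTCNNNGAA occurred only in Apcs among the 8 and in 8.13% of genes. The C/EBP-type string TTGCNNCAA and both NF-kappaB-type patterns searched, of 10 letters each, matched none of the 8, against 1.98%, 1.65% and 5.31% of genes. TATAAA was found in Orm2 and in 14.3% of genes. The windows of Saa1 and Saa2 were identical over 94.8% of their alignment, whereas Saa1 and Saa3 shared 52.7% and Saa1 and Saa4 shared 47.1%.

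**Figure D1:**
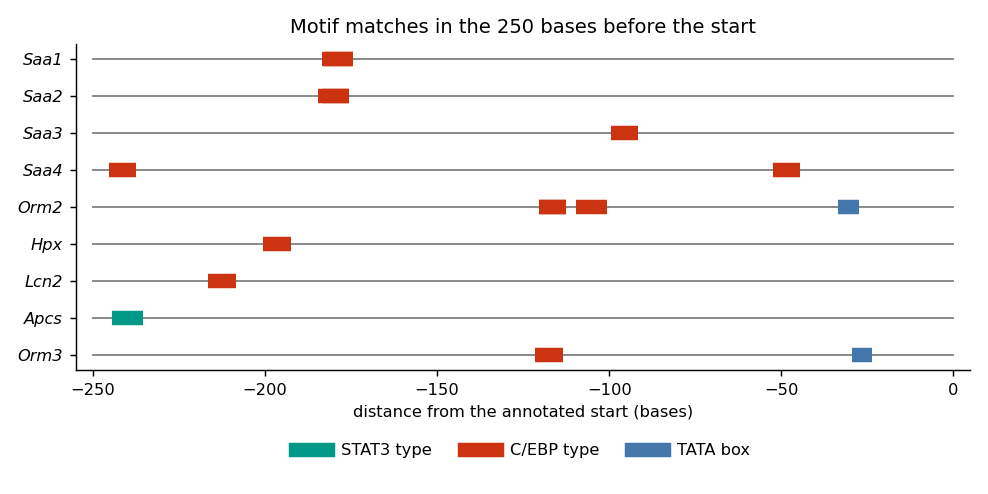
Positions of motif matches in the 250 bases before the RefSeq start of 8 acute phase genes and Orm3, with distance from the start in bases on the x axis and 1 gene per line. Red bars are C/EBP-type matches, the green bar a STAT3-type match and blue bars TATAAA. A reader should see that the matches in Saa1 (bases -183 to -175) and Saa2 (-184 to -176) lie 1 base apart in distance from the start, and elsewhere in Saa3, Saa4 and Lcn2.

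The 4 Saa genes lie together on chromosome 7 (GRCm38, GENCODE M21), in the order Saa3 (chr7:46711998-46715700), Saa4 (chr7:46727998-46732603), Saa1 (chr7:46740497-46742980) and Saa2 (chr7:46751790-46754313), the last on the plus strand and the others on the minus strand. Orm1 (chr4:63344560-63348163), Orm3 and Orm2 (chr4:63362449-63365878) form a cluster on chromosome 4, on the plus strand. The coding sequences of Saa1 and Saa2 were 95.1% identical, and those of Orm1 and Orm2 89.9%. Reads that fit both genes of a pair could be lost or misassigned in the counting, which makes the values of these genes less certain. Saa1 shared 76.9% with Saa3 and 67.0% with Saa4. Hp lies at chr8:109575128-109579172, Hpx at chr7:105591613-105600137, Lcn2 at chr2:32384633-32388252 and Apcs at chr1:172893961-172895041, all on the minus strand.

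Libraries held 23090837 to 34089722 counts in genes. Levels are given as CPM, counts scaled to a common library total after TMM normalization, and differences as log2 fold changes of KO against WT from edgeR's quasi-likelihood test, with p-values adjusted by the Benjamini-Hochberg method over the 16089 genes tested and calls at an adjusted p under 0.05. The targeted gene Shmt2 was 94.6, 109 and 93.9 CPM in the WT livers and 24.9, 28.3 and 19.3 CPM in the KO livers, a log2 fold change of -2.04 ± 0.16 (SE), with an adjusted p of 0.000639 by edgeR, which matched the labels of all 6 libraries. Of all genes tested, 29.0% were called, 16.5% lower and 12.5% higher in KO. Under library size alone the split of calls was 4923 lower and 539 higher, and under scaling to the ERCC spike-in RNAs 2759 lower and 107 higher, against 2651 and 2012 under TMM. The spike-ins held 1.47%, 1.84% and 1.42% of all counts in the WT libraries and 2.75%, 2.31% and 1.35% in the KO libraries. Their share was thus raised in KO mice 1 and 2, while KO mouse 3 was below every WT mouse. KO mouse 1 stood apart from the other 2 KO mice along the second principal component, which held 20.5% of the variance, while the first held 62.9% and separated the genotypes. Each result on a member is therefore given with and without KO mouse 1. Whether the libraries come from separate litters or cages is not given in the sources used here, so p-values measure the spread between these 6 livers.

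In the KO livers 3 of the 10 members rose, Saa4, Saa3 and Orm1, and none fell by edgeR. In the design as a whole 12.5% of genes were called higher, the share to read 3 of 10 against. The count of lower members was 0 by edgeR, 0 at an unadjusted p under 0.05, and 0 by DESeq2 and by limma-voom. At the cutoff of the study's methods, p under 0.05 with an adjusted p under 0.25, 3 members were higher and 0 lower, against 19.5% and 21.8% of all genes. The same 3 genes were the members whose KO values lay above every WT value, a pattern found in 21.9% of genes tested, and no member had all KO values below WT, which held for 25.0% (46.9% in either direction). The median log2 fold change of the 10 was 0.90, that of 12 hepatocyte markers 0.66 and that of all genes tested 0.03. Without KO mouse 1 the values of the 10 ran from -1.67 for Lcn2 to 1.04 for Saa4. Saa1 at -0.01 and Hp at 0.03 were in the middle of that order. Without WT mouse 1, 2 or 3 no member was called, with adjusted p-values by edgeR in the KO-higher genes from 0.0749 to 0.160, and without KO mouse 1 the same 3 were called higher and Lcn2 was called lower. Scaling to the ERCC spike-ins moved the median gene by -0.72 on the log2 scale, and under it Saa3, Saa4 and Orm1 had log2 fold changes of 0.92, 0.95 and 0.27 and did not pass (adjusted p = 0.278, 0.126 and 0.632, edgeR), while Lcn2 passed as lower (-1.73, adjusted p = 0.00349).

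**Figure D2:**
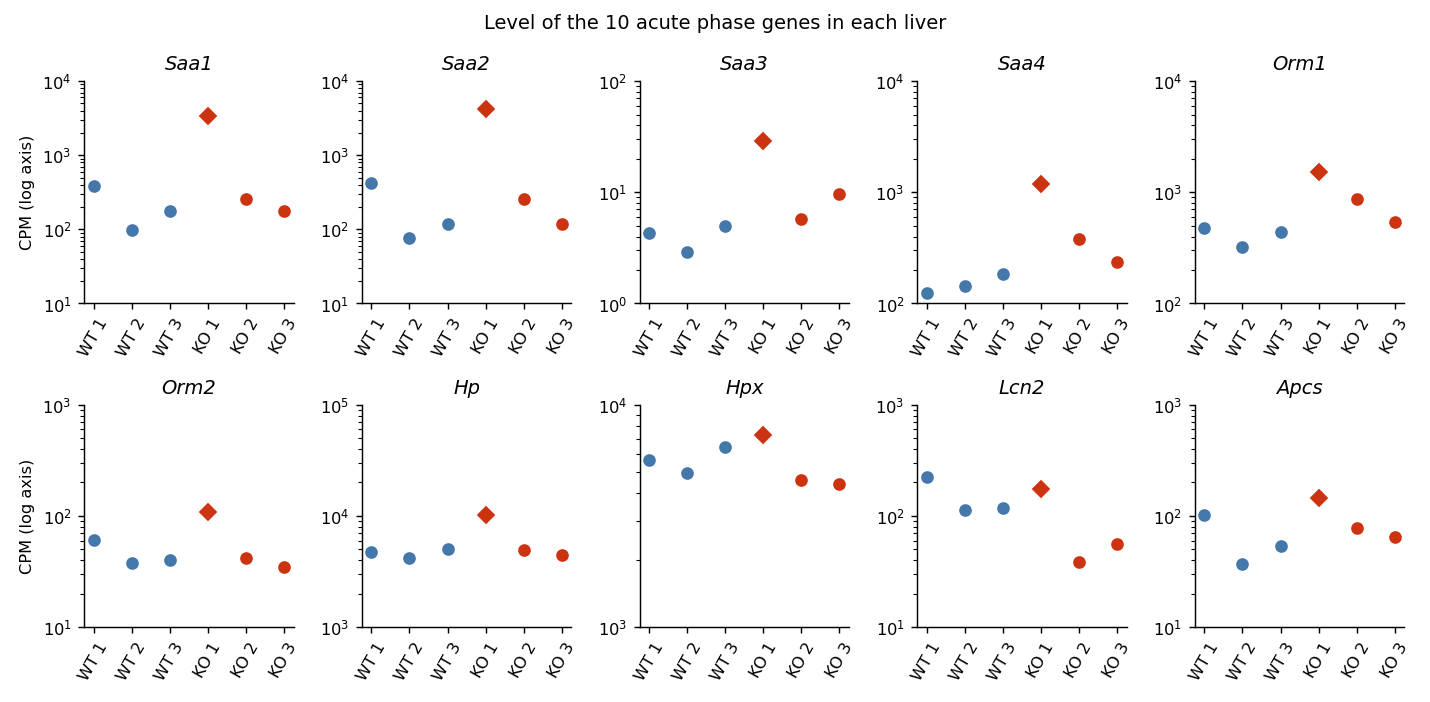
CPM of each of the 10 acute phase genes (log axis) in each liver, with WT mice in blue and KO mice in red. KO mouse 1, drawn as a diamond, had the highest level of every gene but Lcn2, from 29.2 CPM for Saa3 to 10129 CPM for Hp.

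Saa1 was 383, 98.5 and 177 CPM in the WT livers and 3405, 260 and 174 CPM in the KO livers. KO mouse 1 alone was far above the others, and the other 2 KO mice lay inside the WT range. The log2 fold change was 2.54 ± 1.21 (SE), with an adjusted p of 0.164 by edgeR. Without KO mouse 1 it was -0.01 ± 0.55 (adjusted p = 0.990, edgeR). Saa1 thus varied 3.89-fold between the highest and the lowest WT liver and 19.5-fold between the KO livers.

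Saa2, the near copy of Saa1, followed it from mouse to mouse. Its levels were 418, 76.4 and 118 CPM in WT and 4191, 255 and 118 CPM in KO. Again KO mouse 1 stood above the rest, WT mouse 1 was highest in its group, and KO mouse 3 was level with WT mouse 3. Its log2 fold change was 2.90 ± 1.42 (adjusted p = 0.176, edgeR), and without KO mouse 1 it was -0.13 ± 0.84 (adjusted p = 0.928, edgeR). In KO mouse 1, Saa1 and Saa2 together held 0.615% of gene counts (95% Wilson interval 0.612 to 0.618), and in the other 5 livers 0.0201% to 0.0964%. These intervals, and all others here, cover counting error only. The ratio of Saa2 to Saa1 counts ranged from 0.667 to 1.23 over the 6 livers.

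Saa3, the isoform made outside hepatocytes as well, by macrophages and adipocytes among others, was the lowest of the 10 genes. It measured 4.31, 2.90 and 4.98 CPM in WT and 29.2, 5.72 and 9.68 CPM in KO, resting on 77 to 687 counts per library. All KO livers were above all WT livers, although KO mouse 2 was close to WT mouse 3. Saa3 rose by a log2 fold change of 1.86 ± 0.58, with an adjusted p of 0.049996 by edgeR, at the edge of the threshold. Without KO mouse 1 the log2 fold change was 0.92 ± 0.30 (adjusted p = 0.0447, edgeR). The call was lost without KO mouse 3 (adjusted p = 0.0693) and without any WT mouse (0.108 to 0.160, edgeR), and also by limma-voom (0.0702).

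Saa4, the constitutive isoform carried on high density lipoprotein, measured 124, 142 and 183 CPM in WT and 1179, 380 and 238 CPM in KO. The groups did not overlap, and the KO livers spread over a wider range than the WT livers. Saa4 rose by a log2 fold change of 2.0 ± 0.57 (adjusted p = 0.0378, edgeR), and by 1.04 ± 0.23 without KO mouse 1 (adjusted p = 0.0104, edgeR). The call was lost without WT mouse 1, 2 or 3, at adjusted p-values of 0.119, 0.123 and 0.0891 by edgeR.

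Orm1, the main alpha-1-acid glycoprotein of mouse liver, measured 479, 324 and 436 CPM in WT and 1512, 864 and 544 CPM in KO. Every KO liver was above every WT liver, with KO mouse 3 nearest to the WT group. Orm1 rose by a log2 fold change of 1.24 ± 0.35 (adjusted p = 0.0330, edgeR), and by 0.77 ± 0.24 without KO mouse 1 (adjusted p = 0.0399, edgeR). Without KO mouse 2 the adjusted p was 0.0645, and without a WT mouse it was 0.0749 to 0.116 (edgeR).

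Orm2 encodes a second alpha-1-acid glycoprotein and was far less abundant than Orm1, whose transcript has the same length. It measured 61.1, 38 and 39.9 CPM in WT and 108, 41.6 and 34.9 CPM in KO. The groups overlapped, and only KO mouse 1 lay above the WT range. The fitted difference was a log2 fold change of 0.41 ± 0.44 (adjusted p = 0.524, edgeR), and -0.27 ± 0.21 without KO mouse 1 (adjusted p = 0.369, edgeR). The ratio of Orm2 to Orm1 counts was 0.127, 0.117 and 0.0915 in WT and 0.0716, 0.0481 and 0.0642 in KO, lower in each KO liver than in each WT liver.

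Orm3, the paralog between Orm1 and Orm2, was scarce but differed in all KO mice. It measured 2.47, 5.30 and 3.16 CPM in WT and 14.6, 19.2 and 8.62 CPM in KO. Its highest value was in KO mouse 2 and not in KO mouse 1. Orm3 rose by a log2 fold change of 1.97 ± 0.37 (adjusted p = 0.00671, edgeR) and by 1.95 without KO mouse 1 (adjusted p = 0.00945, edgeR).

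Hp and Hpx were the most abundant of the 10 genes. Hp measured 4750, 4219 and 5012 CPM in WT and 10129, 4985 and 4482 CPM in KO. The level in KO mouse 1 was above all others, while KO mice 2 and 3 lay within the WT range. The log2 fold change of Hp was 0.49 ± 0.32 (adjusted p = 0.287, edgeR), and 0.03 ± 0.20 without KO mouse 1 (adjusted p = 0.938, edgeR).

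Hpx measured 5644, 4914 and 6477 CPM in WT and 7294, 4607 and 4389 CPM in KO. KO mouse 1 was the highest liver and KO mice 2 and 3 the lowest. The difference was a log2 fold change of -0.06 ± 0.25 (adjusted p = 0.868, edgeR), and -0.33 ± 0.21 without KO mouse 1 (adjusted p = 0.272, edgeR). Hp and Hpx together made up 1.05% to 1.29% of raw gene counts, without TMM, in WT, and 1.41%, 0.769% and 0.872% in KO.

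Lcn2 was the one member with a lower mean in KO apart from Hpx. It measured 222, 114 and 118 CPM in WT and 174, 38.8 and 55.6 CPM in KO. KO mice 2 and 3 were below every WT liver, whereas KO mouse 1 lay inside the WT range. The log2 fold change was -0.76 ± 0.57 (adjusted p = 0.36, edgeR). Without KO mouse 1 Lcn2 fell by a log2 value of 1.67 ± 0.33 (adjusted p = 0.00837, edgeR), in a fit that called 17.4% of genes lower. Leaving out any other mouse gave log2 fold changes from -0.93 to -0.37, none of them called (adjusted p = 0.405 to 0.715, edgeR).

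Lcn2 is also made by neutrophils, macrophages and injured epithelial cells, and the markers of those cells were read in the same libraries. Of 13 neutrophil markers 4 passed the filter, 2 with lower and 2 with higher estimates in KO (median log2 fold change 0.03), and 1, Csf3r, was called lower. The summed level of the 13 was 8.54 to 12.8 CPM in WT and 5.52 to 9.59 CPM in KO. Ly6g and Mpo had at most 2 counts in any library. All 10 cholangiocyte markers fell, from a sum of 1049 to 1323 CPM in WT to 154 to 273 CPM in KO, with KO mouse 1 at 154 CPM and KO mouse 2 at 155 CPM. Of 14 macrophage and Kupffer cell markers 6 were lower and 3, Timd4, Clec4f and Vsig4, were higher, with sums of 867 to 1197 CPM in WT and 620 to 793 CPM in KO. Over all genes tested 16.5% were called lower and 12.5% higher. In whole liver, fewer cells of a type and less RNA per cell cannot be told apart. The part of these cells in the levels of Lcn2 and Saa3 was not tested.

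Apcs, the pentraxin of the set, measured 102, 37.0 and 54.0 CPM in WT and 144, 78.4 and 65.2 CPM in KO. KO mouse 1 was the highest, but WT mouse 1 exceeded KO mice 2 and 3. This gave a log2 fold change of 0.57 ± 0.43 (adjusted p = 0.364, edgeR), and 0.16 ± 0.38 without KO mouse 1 (adjusted p = 0.787, edgeR).

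**Figure D3:**
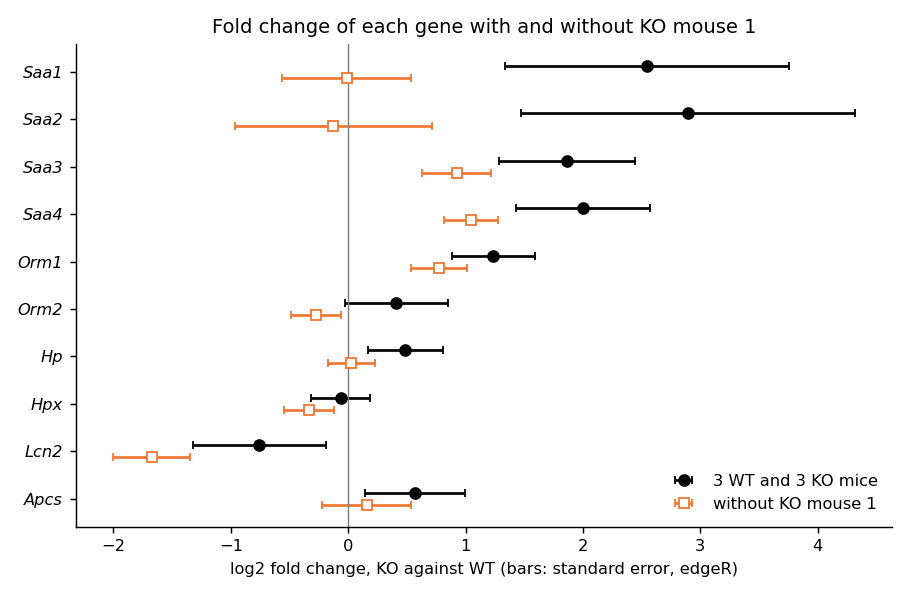
The log2 fold change of KO against WT for each of the 10 genes (x axis), with bars showing the standard error from edgeR, for all 6 mice (black) and without KO mouse 1 (orange squares). Saa1 and Saa2 moved from 2.54 and 2.90 to -0.01 and -0.13, Saa3, Saa4 and Orm1 stayed above 0 at 0.92, 1.04 and 0.77, and Lcn2 moved from -0.76 to -1.67.

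Between genes, levels were compared per kilobase of the principal protein-coding transcript. In WT the mean order was Hpx at 3788 CPM per kb, Hp at 3465, Orm1 at 533, Saa1 at 360, Saa2 at 313, Lcn2 at 165, Saa4 at 71.6, Apcs at 66.4, Orm2 at 59.8 and Saa3 at 7.32. In all 3 WT mice Hpx was first, Hp second and Saa3 last. Neighbors such as Saa1 and Saa2, or Saa4, Apcs and Orm2, changed places from mouse to mouse. In each KO mouse Hp was the highest, and in KO mouse 1 Saa2 and Saa1, at 6428 and 5591 CPM per kb, came next, above Hpx at 4866. Lcn2 ranked 5 or 6 of the 10 in the WT mice and 7 to 9 in the KO mice.

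The 10 genes made up 1.47%, 1.15% and 1.42% of gene counts in WT and 2.28%, 0.923% and 0.994% in KO. The 95% Wilson intervals reached from 1.463 to 1.471, 1.143 to 1.151 and 1.415 to 1.423 in WT and from 2.276 to 2.286, 0.919 to 0.927 and 0.990 to 0.998 in KO, which is far narrower than the differences among mice. The share in KO mouse 1 was thus above all WT mice and the shares in KO mice 2 and 3 were below them. These are shares of raw gene counts, without TMM. On the TMM-scaled CPM used for the levels, the sum of the 10 was 9966 to 12620 CPM in WT. It was 28163, 11516 and 10110 CPM in KO, so that KO mice 2 and 3 lay inside the WT range on that scale. The mean share in KO minus that in WT was 0.0548 percentage points, and it was -0.386 points without KO mouse 1 and -0.0438 points without WT mouse 2.

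Across the 6 livers the log2 levels of Saa1 and Saa2 had a Pearson correlation of 0.99, those of Saa4 and Orm1 0.95, and those of Saa1 and Hp 0.96. Lcn2 correlated with Hpx at 0.73 and with Saa4 at -0.07. All of these points share the same 6 libraries, and KO mouse 1 weighs on each, so the values are descriptions. The tested genes outside the set most like Saa1 over the 6 livers were St8sia3 (0.99), 9230111E07Rik (0.99) and Slc41a2 (0.99). Slc41a2, a magnesium transporter, measured 29.4, 14.6 and 24.0 CPM in WT and 86.5, 21.9 and 20.6 CPM in KO, and the other 2 were under 4 CPM in every liver. Those most like Lcn2 were Slc1a1 (0.99), 2700099C18Rik (0.99) and Bcl6 (0.99). Bcl6, a transcriptional repressor, measured 39.5, 29.0 and 30.4 CPM in WT and 40.0, 18.5 and 22.9 CPM in KO.

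Upstream of the members, Il6, Il17a and Il22 were at or near 0, and Il1b and Tnf were low but counted in every liver. Il6, the principal inducer of the hepatic response, had 1 count in WT mouse 3 and 0 in the other 5 livers, where 3 counts would be 0.0734 to 0.152 CPM. Il17a had no count in any liver, and Il22 had 1 count in KO mouse 1. Il1b measured 3.74, 0.941 and 3.18 CPM in WT and 2.29, 2.79 and 2.16 CPM in KO (log2 fold change -0.13, adjusted p = 0.848, edgeR). Tnf measured 1.54, 1.32 and 1.23 CPM in WT and 1.19, 0.608 and 0.630 CPM in KO (-0.75, adjusted p = 0.167, edgeR).

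Among 17 tested of 20 ligands and receptors, 6 fell and 2 rose, against 16.5% and 12.5% of all genes tested. Osm, a gp130 cytokine, fell by 2.76 in log2 units (adjusted p = 0.00828, edgeR), from 0.465 to 0.564 CPM in WT to at most 0.118 CPM in KO. It rested on 15 to 20 counts per library in WT and 1 to 3 in KO. Its receptor subunit Osmr measured 16.5, 16.3 and 20.2 CPM in WT and 4.80, 6.28 and 10.7 CPM in KO and fell by 1.28 (adjusted p = 0.0120, edgeR). Il10rb, a subunit of the interleukin-10 and interleukin-22 receptors, fell by 1.04 (adjusted p = 0.00567, edgeR). Il1rap, the accessory chain of the interleukin-1 receptor, rose from 49.1 to 56.1 CPM in WT to 102 to 128 CPM in KO, by 1.13 (adjusted p = 0.00132, edgeR). The other genes that fell were Lif, with 46 to 67 counts per library in WT and 2 to 17 in KO, Tnfrsf1b and Il1rn. The other that rose was Lifr. The abundant receptors Il6st, which encodes gp130, and Tnfrsf1a had log2 fold changes of 0.24 (adjusted p = 0.204) and -0.02 (adjusted p = 0.948, edgeR). The counts of lower and higher genes in this list were 7 and 1 under library size alone and 4 and 0 under ERCC scaling, and leaving out WT mouse 1, WT mouse 3 or KO mouse 2 left 3, 2 and 3 lower, while 1 was higher without WT mouse 1, 2 or 3. Osm and Lif passed the filter through their WT counts. With at least 10 counts required in every sample, which leaves both out, 4 genes were lower and 2 higher.

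Of 26 transducers, transcription factors and inhibitors, 5 fell and 3 rose, near the 16.5% and 12.5% of all genes tested. Relb, an NF-kappaB subunit of the alternative pathway, measured 23, 25.9 and 27.2 CPM in WT and 4.46, 6.94 and 12 CPM in KO and fell by 1.70 in log2 units (adjusted p = 0.00665, edgeR). Socs1, a feedback inhibitor of JAK kinases, fell by 1.43 (adjusted p = 0.00634, edgeR). Nfkb2, Nfkb1 and Nfkbiz were the others that fell. Cebpa, the C/EBP factor of resting hepatocytes, measured 421, 400 and 481 CPM in WT and 694, 710 and 747 CPM in KO and rose by 0.72 (adjusted p = 0.00901, edgeR). Creb3l3, a liver transcription factor activated by cleavage, measured 253, 315 and 300.4 CPM in WT and 431, 432 and 414 CPM in KO and rose by 0.56 (adjusted p = 0.0217, edgeR). Hnf4a had an estimated log2 difference of 0.41 (adjusted p = 0.101, edgeR). Under library size alone 9 genes of this list were lower and 0 higher, and under ERCC scaling 3 and 0. Without WT mouse 1, WT mouse 2 or KO mouse 2 there were 3 lower and without WT mouse 3 there were 2, and 0 were higher without WT mouse 2.

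The transcription factors and the feedback inhibitor best known from the interleukin-6 response did not pass the test. Stat3 measured 107, 90.4 and 137 CPM in WT and 165, 146 and 95.6 CPM in KO (log2 fold change 0.28, adjusted p = 0.402, edgeR). Socs3, a direct STAT3 target, measured 16.9, 14.4 and 26.2 CPM in WT and 28.2, 14.6 and 14.5 CPM in KO (-0.00, adjusted p = 0.993, edgeR). Cebpb measured 90.8, 174 and 105 CPM in WT and 85.3, 135 and 243 CPM in KO (0.33, adjusted p = 0.574, edgeR). KO mouse 1 had the highest Stat3 and Socs3 of the 6 livers and the lowest Cebpb.

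Of 28 other positive acute phase genes, 27 were tested, 8 rose and 0 fell, with a median log2 fold change of 0.69. Over all genes tested 12.5% were called higher and 16.5% lower. None was lower at an unadjusted p under 0.05, by DESeq2 or by limma-voom. Crp, the pentraxin related to Apcs, measured 213, 235 and 190 CPM in WT and 516, 488 and 350 CPM in KO and rose by 1.09 on the log2 scale (adjusted p = 0.00463, edgeR). Mbl2, a collectin that activates complement, rose by 1.23 (adjusted p = 0.00141, edgeR), and Vnn1, a pantetheinase, by 1.13 (adjusted p = 0.00343, edgeR). Serpina3k, a serine protease inhibitor, rose by 1.46 (adjusted p = 0.00941, edgeR), with 10455, 4972 and 5594 CPM in KO against 2373 to 2748 CPM in WT. Serpina3m, Mbl1, Cfb and Fn1 were the others, and C3, the most abundant, had an estimated log2 difference of -0.12 (adjusted p = 0.682, edgeR). Serpina3k lies inside the annotated span of Serpina3m on the same strand, so reads of these genes could be lost or misassigned. In all 19 were not called, among them Serpina3n, Lrg1 and Lbp (adjusted p = 0.152, 0.356 and 0.0918, edgeR). The list was set by gene name, and how strongly each gene responds in mouse liver was not tested. Under ERCC scaling none of the 27 was called higher and 1 was called lower, under library size alone 5 were higher and 1 lower, and without WT mouse 1 or 2 there were 4 and 5 higher. Without KO mouse 1, 7 genes were called higher and 1, Mt2, was called lower. The log2 fold changes then ran from -1.12 for Mt2 to 1.29 for Vnn1, with Serpina3n at 0.22 in the middle.

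KO mouse 1 had the highest level of 21 of these 28 genes, of 9 of the 10 members and of 7 of 17 negative acute phase genes. The share of all genes that were highest in this mouse was not computed, so whether these counts are particular to acute phase genes was not tested. The fibrinogen genes and A2m, chosen after their values were seen, are examples. Fgb, the beta chain of fibrinogen, measured 2694, 1576 and 2845 CPM in WT and 8203, 3077 and 2082 CPM in KO (log2 fold change 0.91, adjusted p = 0.206, edgeR). A2m, alpha-2-macroglobulin, had 140 counts in KO mouse 1, or 5.94 CPM, and 2 to 7 counts in the other 5 livers. In the same mouse the adipocyte markers Adipoq and Plin1 had 63 and 100 counts, against at most 4 and 5 elsewhere. Of 6 adipocyte markers only Cfd was tested, and it rose in KO, at 91.1, 62.2 and 10.9 CPM against 1.10 to 2.90 CPM in WT. The sum of the 6 was 1.17 to 2.93 CPM in WT and 99.8, 62.7 and 11.1 CPM in KO. Their part in the levels of KO mouse 1 was not tested.

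**Figure D4:**
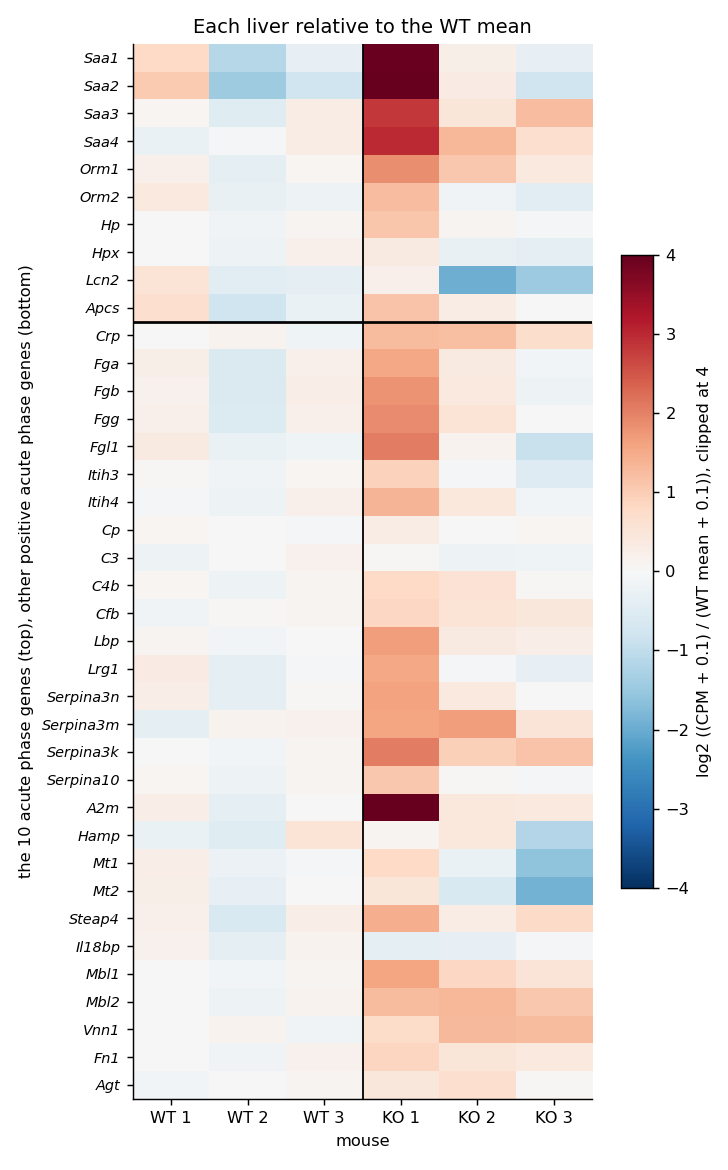
Each liver relative to the WT mean, as log2 of the ratio of CPM with 0.1 CPM added to both, for the 10 acute phase genes above the line and 28 other positive acute phase genes below it (red higher, blue lower, colors clipped at 4). The column of KO mouse 1 is red for most genes, as for Saa1 at 3405 CPM and A2m at 5.94 CPM, while Crp, Mbl2 and Vnn1 are red in all 3 KO columns and Lcn2 is blue in KO mice 2 and 3.

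Negative acute phase genes are those whose levels fall in a classical response. Of 17 tested 7 rose and 0 fell, against 12.5% and 16.5% of all genes tested. Their median log2 fold change was 0.56, and none was lower at an unadjusted p under 0.05, by DESeq2 or by limma-voom. Pon1, the paraoxonase of high density lipoprotein, measured 172, 199 and 212 CPM in WT and 503, 593 and 350 CPM in KO and rose by 1.31 on the log2 scale (adjusted p = 0.00374, edgeR). Apoa2, an apolipoprotein of the same particle, rose by 1.55 (adjusted p = 0.00888, edgeR), and Apoa4 by 1.5 (adjusted p = 0.0274, edgeR). Hrg, a histidine-rich plasma glycoprotein, rose by 0.81 (adjusted p = 0.0201, edgeR). Alb measured 34830, 34486 and 43319 CPM in WT and 57321, 65656 and 42706 CPM in KO (0.56, adjusted p = 0.132, edgeR), and Apoa1 had an estimated log2 difference of 0.69 (adjusted p = 0.0646, edgeR). Under library size alone 2 of the 17 were lower and 2 higher, under ERCC scaling 1 and 1, and with DESeq2 12 were higher. Without WT mouse 1, 2 or 3 or KO mouse 2 the number higher was 2, and without KO mouse 3 it was 11. Of 12 hepatocyte markers 4 rose and 0 fell, against the same shares of all genes. Alb, Ttr and Apoa1 are in both lists, so the counts of the lists are not separate. The sum of the 12 was 59741 to 72838 CPM in WT and 76448 to 113261 CPM in KO, with Alb as its largest part.

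Of 19 receptors and clearance partners of the members, 5 fell and 2 rose, against 16.5% and 12.5% of all genes tested. Cd163, the macrophage receptor that takes up haptoglobin bound to hemoglobin, measured 0.196, 0.564 and 0.574 CPM in WT and 14.7, 24.2 and 7.01 CPM in KO. Cd163 rose by 5.12 ± 0.57 on the log2 scale (adjusted p = 0.00132, edgeR), with 8 to 22 counts in the WT libraries and 178 to 478 in the KO libraries, and by 5.16 without KO mouse 1 (adjusted p = 0.00140, edgeR). Blvrb, a biliverdin reductase, rose as well. Fcgr1 and Fcgr3, Fc receptors that bind pentraxins, fell by 1.33 (adjusted p = 0.00136) and 1.02 (adjusted p = 0.0038, edgeR), and P2rx7, a receptor described for serum amyloid A, fell by 1.06 (adjusted p = 0.00995, edgeR). Tlr2 and Ager were the other genes that fell. Under library size alone and under ERCC scaling 6 genes of the list were lower and 1 higher, 1 was higher without WT mouse 1, WT mouse 2 or KO mouse 2, and 3 were lower without WT mouse 1. With at least 10 counts required in every sample, which leaves out Cd163, 5 were lower and 1 higher. Lrp1, which takes up hemopexin bound to heme, had an estimated log2 difference of 0.26 (adjusted p = 0.257), and Scarb1, the receptor for high density lipoprotein, 0.13 (adjusted p = 0.555, edgeR). Slc22a17, a receptor for lipocalin 2 singled out after its values were seen, measured 9.42, 11.9 and 9.16 CPM in WT and 9.68, 3.19 and 2.99 CPM in KO. Like Lcn2, it was low in KO mice 2 and 3 alone (log2 fold change -0.94, adjusted p = 0.14, and -1.71, adjusted p = 0.00109, without KO mouse 1, edgeR).

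**Figure D5:**
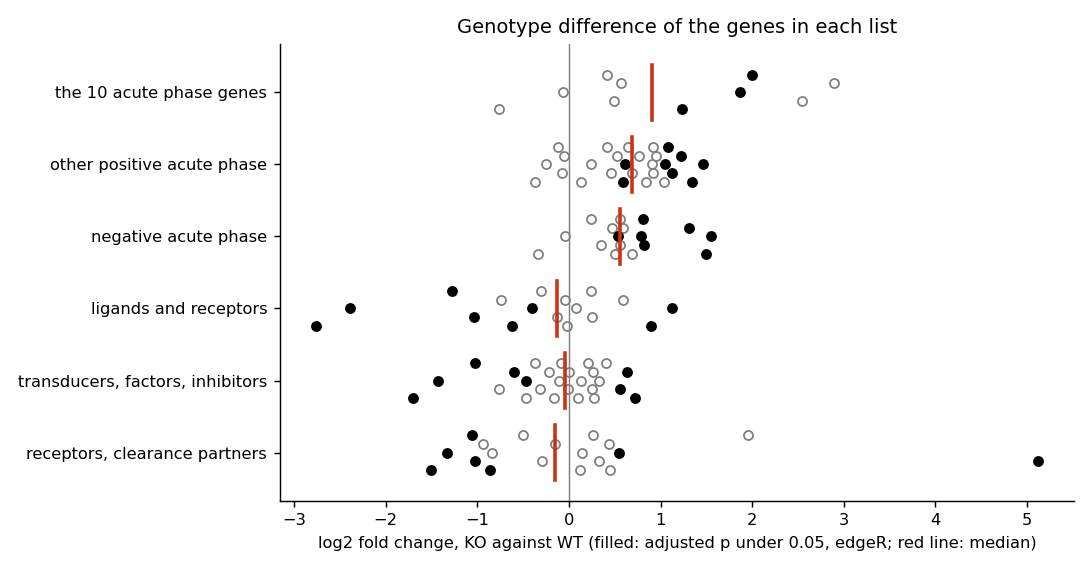
Log2 fold change of KO against WT (x axis) for each tested gene of the 10 acute phase genes and of 5 related lists, 1 list per line, with filled points for genes called at an adjusted p under 0.05 by edgeR and a red line at the median. With KO mouse 1 included, the medians were 0.90, 0.69 and 0.56 for the members, the other positive and the negative acute phase genes. The point at 5.12 is Cd163.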

How the data were processed

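RNA-seq was read from 6 mouse livers, 3 WT and 3 KO. Per the labels and the study's methods, the authors trimmed paired-end reads with Trimmomatic 0.36, aligned them with STAR 2.5.2b to GRCm38 with ERCC spike-in sequences, and deposited raw counts of unique hits per Ensembl gene (EnsDb.Mmusculus.v79). The submitters' processing notes also name featureCounts and Subread 1.5.2, and the strand setting is not given in the sources used here, so reads of overlapping antisense genes are not separated with certainty.

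The table held 49763 entries, of which 92 were ERCC spike-ins, left out of library sizes. Genes were named from GENCODE M21, and 259 IDs without an entry there held 0.0116% of counts. Counts were filtered with filterByExpr, scaled by TMM and tested with edgeR 4.0.16 (R 4.3.3) in a quasi-likelihood fit with robust estimation, WT 1 to 3 against KO 1 to 3 with no covariate, two-sided, with Benjamini-Hochberg adjustment over 16089 genes. The scripts were tested on simulated data. Alternatives were DESeq2 1.42.0, limma-voom (limma 3.58.1), 4 other scalings, 2 other filters, no robust estimation, a replicate block and leaving out each mouse. Libraries of 1 group differed by 27.0 to 159 chi-square units per gene, so none was a duplicate of another. Shares of counts have 95% Wilson intervals (scipy 1.17.1). Per-kilobase levels use the APPRIS principal protein-coding transcript, the longest where several qualified.

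The members and lists were chosen with earlier results of these data known, so no test over a list is given. The text names all members, Shmt2, the 4 genes of each list with the smallest p-values, the 2 most abundant, known drivers of the response, and the 3 genes most correlated with Saa1 and with Lcn2. An item of these lists is not reported here. Promoter windows came from RefSeq (GRCm38.p6) and coding sequences from GENCODE M21, aligned globally with Biopython 1.88. Comparison of protein sequences was replaced by that of coding sequences.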

Additional observations from a re-analysis of the deposited data

How the results depend on the processing

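Over 16 alternatives, Saa4 was called higher in 10, Orm1 in 9, Saa3 in 6 and Orm3 in 15, and Lcn2 was called lower in 3. Under library size without TMM the median gene shifted by -0.42 on the log2 scale, and under ERCC scaling by -0.72. Without TMM 1 member was higher, related genes were 25 lower and 10 higher, and all genes 4923 lower and 539 higher. Under ERCC scaling 0 members were higher and 1, Lcn2, was lower, 2 related genes and 107 of all genes were higher. Orm2 reversed to -0.0608 without TMM and -0.56 under ERCC scaling, Hp to -0.40 and Apcs to -0.36 under ERCC scaling. Relative to those shifts Orm2 was 0.36 and 0.16, Hp 0.32 and Apcs 0.36. With no filter beyond 1 count 0 members were higher, with adjusted p-values from 0.112 to 0.235 for Orm1, Saa4 and Saa3. The cause was not tested.

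Leaving out 1 mouse at a time gave 0 to 3 members higher and 0 to 1 lower, 8 to 18 related genes lower and 10 to 31 higher, and 1621 to 3076 of all genes lower and 805 to 2521 higher. Without KO mouse 1 Saa1, Saa2 and Orm2 reversed, and their log2 fold changes over the 6 fits ranged from -0.0111 to 3.22, -0.127 to 3.97 and -0.275 to 0.663. Hpx ranged from -0.333 to 0.0425 and reversed without WT mouse 3, KO mouse 2 or KO mouse 3. The share of raw gene counts held by the members, without TMM, was 0.0548 points higher in KO and ranged from -0.386 to 0.293 points.

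Samples that share a replicate number did not deviate together (correlations of -0.05, 0.00 and -0.07), so the numbers were not taken as pairs. With the replicate block 1 member, Lcn2, was lower (adjusted p = 0.0310, edgeR) and 2 were higher, Saa4 being lost (0.0693). There were 3 livers a group, and KO mouse 1 was the highest for 9 of 10 members. Log2 fold changes of 2.54 ± 1.21 for Saa1 and 2.90 ± 1.42 for Saa2 were not called, so smaller differences in these genes may be missed. The smallest difference that could be detected was not computed.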
